A study of Mus musculus with 32 samples.

Results

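The variable (V) segments of the mouse T cell receptor beta chain described here are all those named in the T cell receptor beta (TRB) table apart from 5: TRBV16, TRBV12-1, TRBV12-2, TRBV15 and TRBV26. Entries with a blank V name were also left out. That leaves 39 of 44 V names. Of the 39 names, 20 are mouse Trbv genes in RefSeq, and 17 held at least 0.1% of the remaining reads on average over the libraries. The 22 rare names together held 121 reads (0.0401% of the reads of the 39), and 19 of them are not mouse Trbv names, so results below are on the 17 segments. These 17 segments and the rare names accounted for 301925 of 661268 TRB reads (45.7%). TRBV16 alone held 48.5%. Every share below is a percentage of the reads left after these exclusions, so a higher share of one segment lowers the summed share of the others.

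Each beta chain gene joins a V segment to a diversity and a joining segment, and the V segment encodes the first and second of the loops that touch the peptide and the MHC molecule. Segments are used unequally because they rearrange at different frequencies in the thymus and because thymic selection on MHC class I or class II molecules retains them to different degrees in CD8 and CD4 T cells. Superantigens encoded by endogenous mouse mammary tumour viruses of the BALB/c strain bind whole V families. The families left out are among those known to react to such superantigens. In graft-versus-host disease (GVHD), donor T cells respond to the recipient's tissue, and regulatory T cells (Treg) given with the graft restrain that response.

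The study sorted donor T cells of C57Bl6 mice from spleen and lymph nodes and transplanted across a major MHC mismatch into Balb/c recipients, with Treg given on day 0 or not. Titles place the cells after transplantation at day 6, and the series' design text says 8 days. The genotype of the donors is not given beyond the strain, and the labels do not say what the syngeneic recipients were or whether a library pools animals. CD4 and CD8 T cells were each taken before transplantation (day 0, 2 libraries), from syngeneic controls without treatment (3), from allogeneic recipients with untreated GVHD (4) and from recipients with GVHD given Treg, called Treg-treated (4). Treg were taken at day 0 (2) and from Treg-treated recipients (3). This gives 31 libraries in 10 groups. Label prefixes JL019 and JL027 mark 2 sets of libraries, and both occur in every group. The labels do not say what a prefix stands for, so the p-values measure the spread between these libraries, which may be partly technical.

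The TRB libraries came from a nested PCR on full-length cDNA, and the same cDNA gave an RNA-seq library. A library held 8194 to 133115 TRB reads, of which 3045 to 65811 belonged to the 39 names. In this text a clonotype is an entry with its own V, joining segment and CDR3, the loop at the junction. The RNA libraries matched their CD4 and CD8 labels on Cd4 and Cd8a except 1. The CD4 syngeneic library JL019-2 had 1659 normalised counts of Cd4 against 8722 to 21481 in the other CD4 libraries, with 1956 of Cd8a and 825480 of the macrophage gene Lyz2. Its TRBV31 share was 30.5%, beside 31.4% and 30.6% in the other 2 CD4 syngeneic libraries. In the Treg libraries Foxp3, the lineage factor of Treg, was at 197.7 to 442.4, below the 977.9 and 1145 of the CD4 day 0 libraries, whereas Ikzf2, another Treg gene, was at 11615 to 19287 against 1619 and 1770. The 4 Treg markers listed (Foxp3, Il2ra, Ikzf2 and Ctla4) summed to 38975 to 104036 in Treg libraries and to 1023 to 26685 in CD4 libraries.

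All 17 segments lie on chromosome 6 (GRCm38.p6, RefSeq). Trbv1 is the first at 40891296-40891885, Trbv2 to Trbv30 follow between 41047556 and 41281990, and Trbv31 stands apart at 41557693-41558371. RefSeq annotates 16 as V segments and Trbv29 (41271403-41271881) as a V segment pseudogene, although TRBV29 was the source of 42670 reads in 11872 clonotypes here. Averaged over the 31 libraries, TRBV31 held 16.6% of reads (range 2.29% to 31.4%), TRBV4 15.8% (7.22% to 21.7%), TRBV29 11.3% (1.68% to 31.2%) and TRBV17 10.2% (1.38% to 23.0%). TRBV3 averaged 8.37% (2.86% to 30.5%), TRBV5 8.01% (4.79% to 16.4%), TRBV14 6.70% (1.77% to 14.3%) and TRBV1 4.65% (1.49% to 13.7%). These 8 segments held most of the reads in the average library. The 3 TRBV13 genes are related members of a family, and misassignment of reads between them was not tested. They averaged 4.10% for TRBV13-1 (1.52% to 7.17%), 2.44% for TRBV13-3 (0.615% to 3.94%) and 1.95% for TRBV13-2 (0.467% to 3.40%). TRBV19 averaged 2.98% (0.787% to 4.93%), TRBV23 2.86% (0.216% to 14.2%), TRBV30 1.34% (0.0492% to 4.59%), TRBV2 1.29% (0.271% to 2.67%), TRBV20 1.14% (0.289% to 2.12%) and TRBV24 0.220% (0.0181% to 0.734%). The widest ratio of highest to lowest library among segments averaging over 2% was that of TRBV23.

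CD8 and CD4 T cells differed in their V segments. TRBV29, TRBV17 and TRBV14 were higher in CD8 T cells, and TRBV31, TRBV23, TRBV2 and TRBV20 in CD4 T cells. With the 4 arms weighted equally, TRBV29 was 4.34-fold higher in CD8 than in CD4 libraries (log2 difference of shares 2.12 ± 0.20 SE, adjusted p = 3.43e-11, edgeR's quasi-likelihood test with Benjamini-Hochberg adjustment over the 22 V segments tested). TRBV31 was 3.97-fold lower (log2 difference -1.99 ± 0.15, adjusted p = 1.01e-13), and TRBV23 was 4.41-fold lower (-2.14 ± 0.23, adjusted p = 1.63e-09). Of the 17 segments, 11 passed the threshold of 0.05, with 5 higher and 6 lower in CD8 T cells. Among all 22 V segments tested, which include the 5 left out, 68.2% passed, 31.8% higher and 36.4% lower. The median log2 difference was -0.18 over the 17 and -0.15 over the 22.

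The share of TRBV29 ran from 11.9% through a median of 21.9% to 31.2% in the 13 CD8 libraries. In the 13 CD4 libraries it ran from 2.84% through 3.85% to 8.03%. TRBV31 spanned 17.7% to 31.4% in CD4 libraries, with a median of 23.6%, and 2.29% to 10.02% in CD8 libraries, with a median of 6.30%. For these 2 segments every CD4 library lay on one side of every CD8 library, and for the other 15 the ranges overlapped. TRBV23 was at 0.216% to 1.25% in CD8 libraries (median 0.393%) and at 0.591% to 7.93% in CD4 libraries (median 3.17%), so that the lowest CD4 libraries lay within the CD8 range.

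Another 4 segments differed by at least 2-fold. TRBV17 was higher in CD8 T cells by a log2 difference of 1.45 ± 0.26, with medians of 17.5% and 4.68%, and TRBV14 by 1.06 ± 0.19, with medians of 9.90% and 5.06%. TRBV2 and TRBV20 were lower in CD8 T cells by -1.03 ± 0.17 and -1.03 ± 0.20. The other segments that passed the test differed by less, with TRBV3 at -0.64, TRBV5 at -0.56, TRBV13-1 at 0.39 and TRBV13-3 at 0.35 (adjusted p = 0.0419). The TRBV13-3 difference missed the threshold in 21 of 41 alternative settings. TRBV4, the segment with the second highest share, did not pass the test (-0.20 ± 0.13, adjusted p = 0.168).

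**Figure D1:**
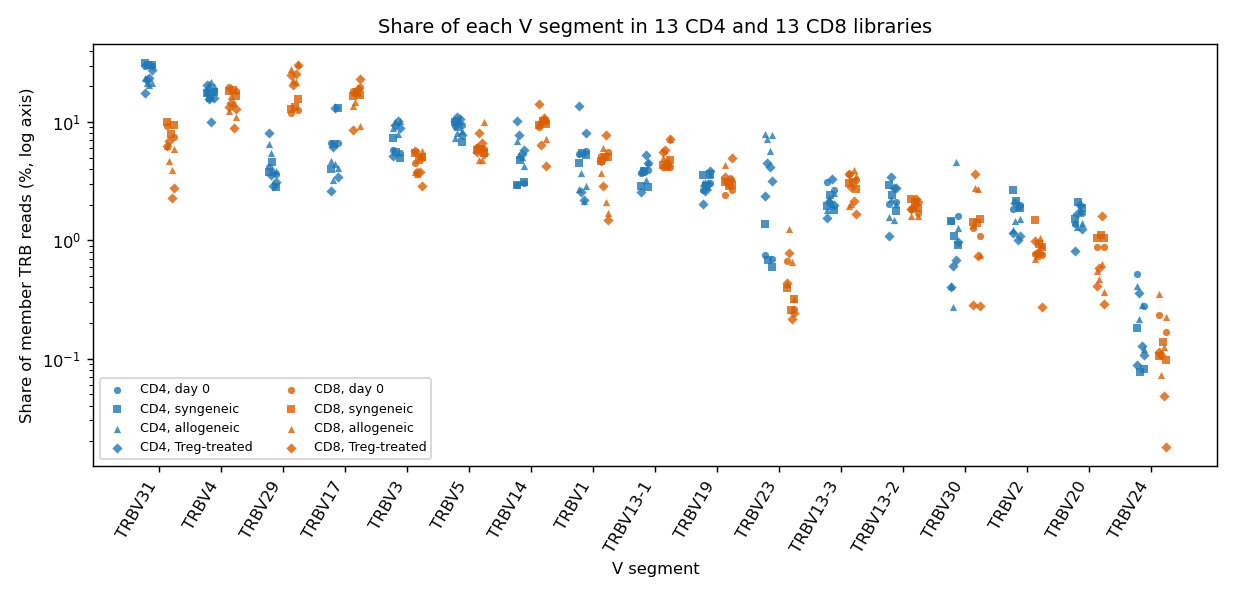
Share of member reads for each of the 17 V segments in the 13 CD4 and 13 CD8 libraries (percent, log axis; each point is a library). TRBV29 and TRBV31 are the segments for which the 2 cell types do not overlap, at 11.9% to 31.2% against 2.84% to 8.03% and at 2.29% to 10.02% against 17.7% to 31.4%.

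The difference was present before transplantation. At day 0, TRBV29 took 11.9% and 12.7% of reads in CD8 T cells against 4.15% and 3.65% in CD4 T cells, and TRBV31 took 9.19% and 7.499% against 29.6% in both CD4 libraries. In these 4 libraries TRBV17 and TRBV29 together held 31.4% ± 1.7 (SD, n = 2) in CD8 T cells and 10.6% ± 0.34 (n = 2) in CD4 T cells. TRBV4 held 19.1% ± 1.01 and 18.5% ± 0.36. Tested within each arm, 4 of 17 segments were called at day 0 (31.8% of all V segments tested), 5 in syngeneic (40.9%), 9 in allogeneic (63.6%) and 8 in Treg-treated recipients (59.1%). The log2 difference of TRBV29 was 1.66 at day 0, 1.90 in syngeneic, 2.39 in allogeneic and 2.53 in Treg-treated recipients, and that of TRBV31 was -1.83, -1.75, -2.07 and -2.31. The log2 difference of TRBV23 was -0.66 ± 0.56 at day 0 (adjusted p = 0.42), -1.43 ± 0.46 in syngeneic, -3.45 ± 0.40 in allogeneic and -3.03 ± 0.40 in Treg-treated recipients. That of TRBV14 was 1.69 ± 0.47 at day 0, 1.44 ± 0.38 in syngeneic, 0.82 ± 0.32 in allogeneic and 0.29 ± 0.32 in Treg-treated recipients (adjusted p = 0.393 in the last), with mean shares of 9.57% in CD8 and 2.97% in CD4 T cells at day 0 and of 8.90% and 7.27% in Treg-treated recipients. By interaction terms, the TRBV14 difference in allogeneic recipients did not pass against that in syngeneic ones (-0.61 ± 0.49, adjusted p = 0.484), nor that in Treg-treated against allogeneic recipients (-0.53 ± 0.45, adjusted p = 0.827, both by edgeR). Whether the differences changed from day 0 was not tested.

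The RNA-seq table gave the same ordering by another library of the same cDNA. Its values are counts normalised between libraries, and a bulk sample cannot tell fewer cells of a type from less RNA per cell. On the log2(value + 1) scale, Trbv29 was higher in CD8 libraries by 2.57 ± 0.26 (adjusted p = 2.18e-08, limma over 16741 genes), Trbv23 lower by -1.97 ± 0.26 and Trbv31 lower by -1.58 ± 0.21. Of the 17 Trbv rows, 9 passed, 5 higher and 4 lower, against 18.3% of all genes. Their median log2 difference was -0.07 and -0.01 over all genes. When each row was taken as a share of the summed rows, 14 of 17 passed (78.3% of the 23 Trbv rows tested). The 9 rows called on the first scale were Trbv29, Trbv17, Trbv14, Trbv13-1, Trbv13-3, Trbv31, Trbv23, Trbv20 and Trbv2. Each had the sign of its TRB segment. B cell markers summed higher in CD8 than in CD4 libraries in every arm without overlap, at 1548 and 2300 against 361.7 and 498.5 at day 0. Erythroid markers were at 14078 and 15472 against 252 and 528.2 at day 0 and overlapped in the other arms. Myeloid markers were higher in CD8 libraries at day 0 and lower in syngeneic ones. The part of these lists was not tested.

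**Figure D2:**
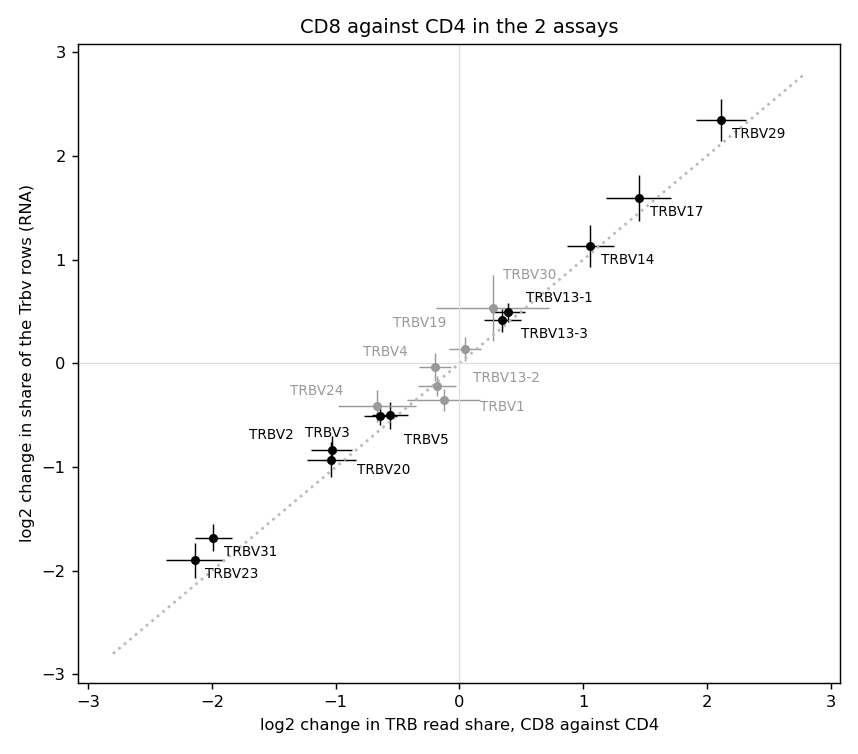
Log2 difference between CD8 and CD4 T cells for each V segment, from TRB reads (horizontal axis) and from the share of the summed Trbv rows in the RNA-seq table (vertical axis), with bars for ± SE and a dotted line of equality. Black points passed the test on reads. TRBV29 lies at 2.12 and 2.35, TRBV31 at -1.99 and -1.68.

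Agreement of the assays could also be described segment by segment. Over the 10 group means, Pearson's r between the TRB share and the RNA share of a segment had a median of 0.984, from 0.537 for TRBV1 to 0.999 for TRBV3. Over deviations of the 31 libraries from their group means, the median was 0.891, with TRBV1 again lowest at 0.459 and TRBV17 highest at 0.958. The points share their cDNA, so these values describe the assays and not independent samples. Between segments within a library the assays agreed less, with Spearman's rho from 0.159 to 0.779 over the 17 segments. TRBV31, for example, held 29.6% of TRB reads in CD4 T cells at day 0, and Trbv31 held 8.71% ± 0.20 (SD, n = 2) of the summed Trbv rows, which are not scaled by transcript length. Levels are therefore compared below between libraries for the same segment.

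In CD4 T cells, allogeneic recipients differed from syngeneic ones in TRBV23, the 1 segment of 17 called by the main test. It took 1.36%, 0.682% and 0.591% of reads in the 3 syngeneic libraries. The share was 7.93%, 7.12%, 5.68% and 7.70% in the 4 allogeneic libraries. The groups did not overlap, and the day 0 libraries, at 0.754% and 0.689%, lay with the syngeneic ones. The share was 8.08-fold higher in allogeneic than in syngeneic recipients (log2 difference 3.01 ± 0.44, adjusted p = 1.33e-06), and it was called in all 22 alternative settings, at 2.09 to 3.50. Which other segments passed depended on the setting. The count of 17 was 2 without each segment's largest clonotype, 3 with TMM, 5 with DESeq2, 7 in a fit of the compared groups alone and 12 with all named V reads as library size. Of those 12, TRBV23 was higher, at 2.09, and 11 were lower in allogeneic recipients, where the 17 segments held 31.6% to 35.6% of all reads against 60.3% to 67.8% in syngeneic ones. In the main test the share called was 22.7% of all V segments tested, and 2 of the 17 had an unadjusted p under 0.05. The median log2 difference was 0.06 over the 17 and 0.28 over the 22. Without the syngeneic library JL019-1, 2 segments were called. The second of those 2, TRBV3, was at 7.36%, 5.61% and 5.002% in syngeneic and 8.89%, 10.02%, 7.91% and 10.1% in allogeneic libraries (log2 difference 0.62 ± 0.25, adjusted p = 0.0702).

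The TRBV23 reads of the allogeneic CD4 libraries were spread over many clonotypes. Each library had 184 to 261 TRBV23 clonotypes, and the largest took 2.29% to 13.8% of that segment's reads. When each clonotype was counted once, TRBV23 was higher by 3.13 ± 0.24 (adjusted p = 1.44e-14), and 6 further segments passed. TRBV24 was higher by 1.47 and TRBV3 by 0.996, and TRBV17, TRBV31, TRBV1 and TRBV4 were lower, by -0.91, -0.74, -0.70 and -0.33. Those 7 of 17 compare with 50% of all V segments tested by the same count. By clonotypes, TRBV3 made up 15.5% to 16.05% in allogeneic and 7.03% to 9.25% in syngeneic libraries.

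The RNA-seq table showed the same rise. Trbv23 was at 143, 61.6 and 128 normalised counts in syngeneic and 610, 513, 538 and 625 in allogeneic CD4 libraries, a log2 difference of 2.44 ± 0.49 (adjusted p = 0.000728). It was the single row called of 17 (14.6% of all genes), with a median log2 difference of -0.55 over the 17 rows and near 0 (-0.0014) over all genes. As a share of the summed rows, Trbv23 was higher by 2.71 ± 0.31 and Trbv3 by 0.48 ± 0.17 (adjusted p = 3.84e-09 and 0.0321), the 2 rows called of 17 against 30.4% of the Trbv rows tested. The syngeneic library with high Lyz2 had the lowest Trbv23 count, and without it 6 rows passed on the first scale (2 without the allogeneic JL027-1). By TRB reads the TRBV23 difference was 2.86 without that library. The 5 myeloid markers listed summed to 16686 to 835273 normalised counts in syngeneic and 1752 to 2629 in allogeneic CD4 libraries, and their part in this result was not tested beyond leaving out that library. The 4 Treg markers listed summed to 18704 to 26685 in allogeneic CD4 libraries, above the 1023 to 5923 of syngeneic CD4 libraries and the 5777 and 5925 of CD4 T cells at day 0, and below the 38975 to 104036 of Treg. Among them Ikzf2 was at 314.6 to 699.6 in allogeneic CD4 libraries, 329.0 to 1627 in syngeneic ones and 1619 and 1770 at day 0. The part of these markers in the TRBV23 result was not tested.

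Against day 0, which are other control libraries, TRBV23 was also the 1 segment of 17 called in the allogeneic CD4 libraries (log2 difference 3.30 ± 0.54, adjusted p = 8.41e-06, against 22.7% of all V segments). Of the 17, 3 had an unadjusted p under 0.05, and TRBV3, one of them, took 5.51% and 5.78% of reads at day 0 and 7.91% to 10.1% in the allogeneic libraries, without overlap (log2 difference 0.71 ± 0.29, adjusted p = 0.0772). Syngeneic recipients and day 0 did not differ by the test in any of the 17 segments, by edgeR, in CD4 T cells (1 with an unadjusted p under 0.05, TRBV24 at -1.80 ± 0.67) or in CD8 T cells (0 with an unadjusted p under 0.05). The share called was 0% of all V segments in both. From day 0 to allogeneic CD4 libraries the myeloid markers went from 644.3 and 1573 to between 1752 and 2629. The B cell markers went from 361.7 and 498.5 to between 158.5 and 239.7, and the CD8 markers from 1894 and 2043 to between 2164 and 3042. The part of these lists in the TRBV23 difference from day 0 was not tested.

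**Figure D3:**
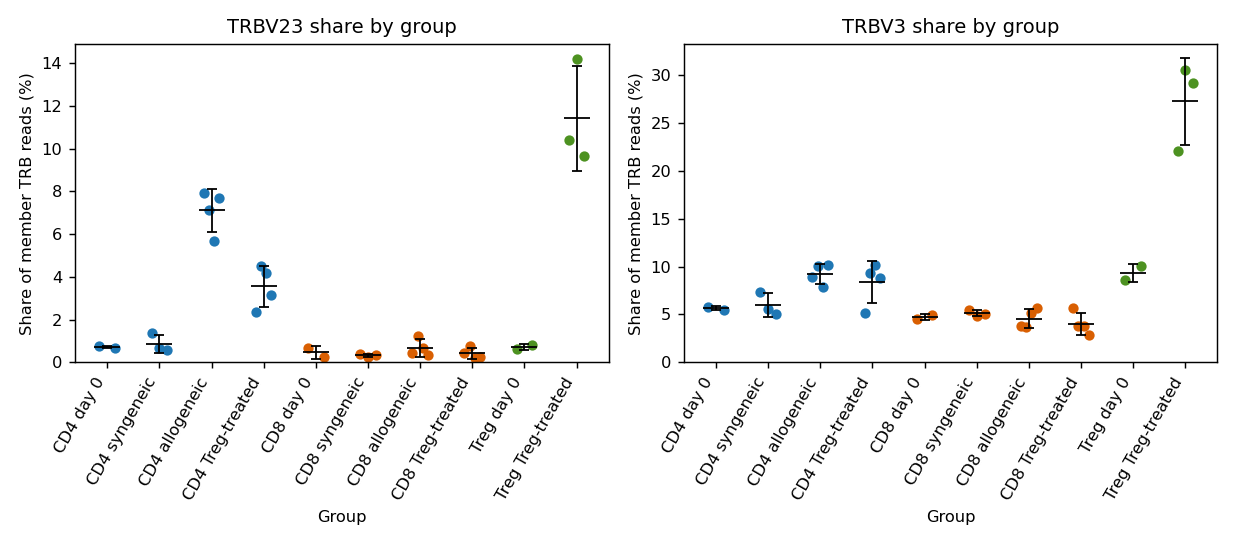
Share of reads taken by TRBV23 and TRBV3 in every library (points) by group, with mean ± SD. TRBV23 is at 5.68% to 7.93% in the 4 allogeneic CD4 libraries and 9.64% to 14.2% in the 3 Treg libraries from Treg-treated recipients, and at most 1.36% at day 0 and in syngeneic recipients. TRBV3 is highest in the same 3 Treg libraries, at 22.1% to 30.5%.

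In CD8 T cells no segment passed the test between allogeneic and syngeneic recipients by edgeR, and the share called was 0% of all V segments. DESeq2 and limma on log2 shares also called 0 of 17. Other settings gave calls by reads, with 3 in a fit of the compared groups alone, 3 without each segment's largest clonotype, 2 with adjustment over the 7 comparisons together, 1 with all named V reads as library size and 1 with the replicate label as a block. An unadjusted p under 0.05 was seen for 4 segments. TRBV31 was at 10.02%, 7.90% and 9.49% in syngeneic and 6.22%, 4.67%, 3.93% and 5.91% in allogeneic libraries (log2 difference -0.82 ± 0.27, adjusted p = 0.0772). TRBV20 was at 1.04%, 1.11% and 1.05% against 0.551%, 0.470%, 0.632% and 0.364% (-1.07 ± 0.38, adjusted p = 0.0772). The other 2 were TRBV29, at 12.8%, 13.5% and 15.6% against 27.8%, 22.5%, 21.9% and 31.2% (0.89 ± 0.36), and TRBV23 (0.99 ± 0.44), with adjusted p = 0.11 and 0.138. The groups did not overlap for TRBV31, TRBV20 or TRBV29, and they overlapped for TRBV23. Over the 17 the median log2 difference was -0.05, and over the 22 it was -0.04.

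Counting each clonotype once, 11 of 17 segments passed in the same CD8 comparison (63.6% of all V segments tested). Higher in allogeneic recipients were TRBV23 at 1.91 ± 0.31, TRBV24 at 1.73, TRBV19 at 0.78, TRBV13-2 at 0.59, TRBV13-3 at 0.57, TRBV13-1 at 0.56 and TRBV29 at 0.49. Lower were TRBV31 at -0.94 ± 0.16, TRBV1 at -0.86, TRBV17 at -0.56 and TRBV4 at -0.50. The allogeneic CD8 libraries held 2.84 to 5.21 reads per clonotype, against 1.15 to 1.39 in the syngeneic ones, and the part of read depth in this result was not tested apart from thinning to equal reads, which also gave 11. In the RNA-seq table Trbv20 was lower by -1.17 ± 0.38 and Trbv1 by -0.86 ± 0.31 (adjusted p = 0.0277 and 0.0464), 2 of 17 rows against 21.1% of all genes. Without the syngeneic library JL019-1 or JL027, or the allogeneic JL027-2, 0 rows passed, and without the allogeneic JL019-1 or JL019-2, 1 did. The myeloid markers summed to 10680 to 14390 in the syngeneic and 2748 to 3151 in the allogeneic CD8 libraries, without overlap. The Treg markers summed to 407.6 to 513.1 in the syngeneic and 19024 to 25973 in the allogeneic libraries. Of that sum, Foxp3 gave 102.7 to 452.7 and Ikzf2 381.3 to 694.2 in the allogeneic libraries, and the rest was Il2ra and Ctla4. In Treg libraries Ikzf2 was at 11615 to 19287. The CD4 T cell markers summed to 70.21 to 97.85 in the syngeneic and 237.9 to 488.1 in the allogeneic libraries. The CD8 T cell markers summed to 97221 to 185379 and 60068 to 82436. None of these lists overlapped. The part of these lists in this result was not tested. As shares, 0 of 17 rows passed by limma (4 with an unadjusted p under 0.05; 4.35% of the Trbv rows tested).

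The allogeneic effect on TRBV23 differed between the cell types. The log2 difference between allogeneic and syngeneic recipients was 2.02 ± 0.60 smaller in CD8 than in CD4 T cells (interaction term of the edgeR model, adjusted p = 0.0132). TRBV23 was the single member called of 17, against 18.2% of all V segments. In the 4 allogeneic CD8 libraries TRBV23 held 0.424%, 1.25%, 0.652% and 0.321% of reads.

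Between Treg-treated and untreated allogeneic recipients, edgeR called no segment of the 17 in either cell type. In CD4 T cells, where 9.09% of all V segments were called, TRBV23 was at 2.37%, 4.52%, 4.16% and 3.17% in Treg-treated recipients, below the 5.68% to 7.93% of the untreated allogeneic libraries without overlap. The log2 difference was -0.999 ± 0.37 (adjusted p = 0.078, edgeR). TRBV1, with the other unadjusted p under 0.05 among the 17, was at 13.7%, 2.58%, 2.20% and 8.04% against 2.72%, 3.72%, 2.15% and 2.88% (1.22 ± 0.52, adjusted p = 0.15). A single clonotype made up 75.1% of the TRBV1 reads in the library at 13.7%. Over the 17 the median log2 difference was -0.05, against -0.14 over the 22. DESeq2 called 2 of the 17, limma on log2 shares 1, adjustment over the 7 comparisons together 1 and the fit with the prefix as a covariate 1. Leaving out the Treg-treated libraries JL019-1, JL019-2 and JL027-1 in turn gave 1, 2 and 1. TRBV23 was lower by -0.64 ± 0.20 (adjusted p = 0.0172) with each clonotype counted once, the 1 segment of 17 called that way against 13.6% of all V segments.

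Against the syngeneic controls, Treg-treated recipients still had more TRBV23 in CD4 T cells (log2 difference 2.02 ± 0.42, adjusted p = 0.000369), and TRBV14 was higher as well (1.02 ± 0.36, adjusted p = 0.0331). These 2 of 17 compare with 22.7% of all V segments. This comparison and that of allogeneic with syngeneic recipients share the 3 syngeneic libraries. The myeloid markers summed to 2927 to 13701 in Treg-treated and 16686 to 835273 in syngeneic CD4 libraries. The Treg markers summed to 12691 to 22802 and 1023 to 5923, with Ikzf2 at 608.5 to 1132 and 329.0 to 1627. The part of these lists was not tested.

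The RNA-seq table differed in its 2 scales here. All 17 Trbv rows had a positive log2 difference in Treg-treated against allogeneic CD4 T cells, with a median of 0.91 against near 0 (-0.0018) for all genes, and 9 of 17 rose by the test (22.2% of all genes). Without the allogeneic library JL019-2, or the Treg-treated JL019-1 or JL019-2, 3 rows passed, and without the allogeneic JL019-1 or the Treg-treated JL027-2, 5 did. The rows called were Trbv13-2 at 1.33, Trbv13-3 at 1.30, Trbv13-1 at 1.14, Trbv5 at 1.28, Trbv17 at 1.48, Trbv14 at 1.35, Trbv31 at 1.16, Trbv1 at 0.96 and Trbv3 at 0.91. In the same libraries the 5 myeloid markers summed to 2927 to 13701 in Treg-treated and 1752 to 2629 in allogeneic recipients, without overlap, and the 3 erythroid markers to 2561 to 29575 and 249.5 to 5069. Their part in the rise was not tested. The summed rows were at 14540 to 23775 normalised counts in Treg-treated and 8718 to 11481 in allogeneic CD4 libraries. Trbv23 was among the rows that did not pass (0.07 ± 0.45), and as a share of the summed rows it was lower by -0.92 ± 0.29 (adjusted p = 0.0254). Trbv24 was lower by -0.75 ± 0.26 as a share (adjusted p = 0.0414). These 2 of 17 compare with 17.4% of the Trbv rows tested, and on the share scale the sign was reversed for 2 rows called on the first scale, Trbv1 (-0.0606) and Trbv3 (-0.112).

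In CD8 T cells 0 of 17 segments were called between Treg-treated and allogeneic recipients by edgeR (0% of all V segments), and DESeq2 and limma also called 0. With the prefix as a covariate 1 was called. The lowest unadjusted p was that of TRBV24 (-1.32 ± 0.55, adjusted p = 0.166), the 1 segment under 0.05, followed by TRBV23 (-0.58 ± 0.39, adjusted p = 0.731). Median log2 differences were -0.09 over the 17 and -0.11 over the 22. Of the 17 Trbv rows, 0 passed by limma on levels (2 with an unadjusted p under 0.05; 0.0657% of all genes). Against syngeneic controls, TRBV31 was lower in Treg-treated CD8 T cells (-0.99 ± 0.27, adjusted p = 0.0162), the 1 segment called of 17 against 4.55% of all V segments. TRBV31 held 6.30%, 6.96%, 2.29% and 2.77% of reads in those Treg-treated libraries. The myeloid markers summed to 2524 to 5596 in these and 10680 to 14390 in the syngeneic CD8 libraries, and the CD4 T cell markers to 252.3 to 537.4 and 70.21 to 97.85. The Treg markers summed to 12194 to 19989 and 407.6 to 513.1, with Ikzf2 at 682.3 to 895.6 in the Treg-treated libraries. The part of these lists was not tested.

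**Figure D4:**
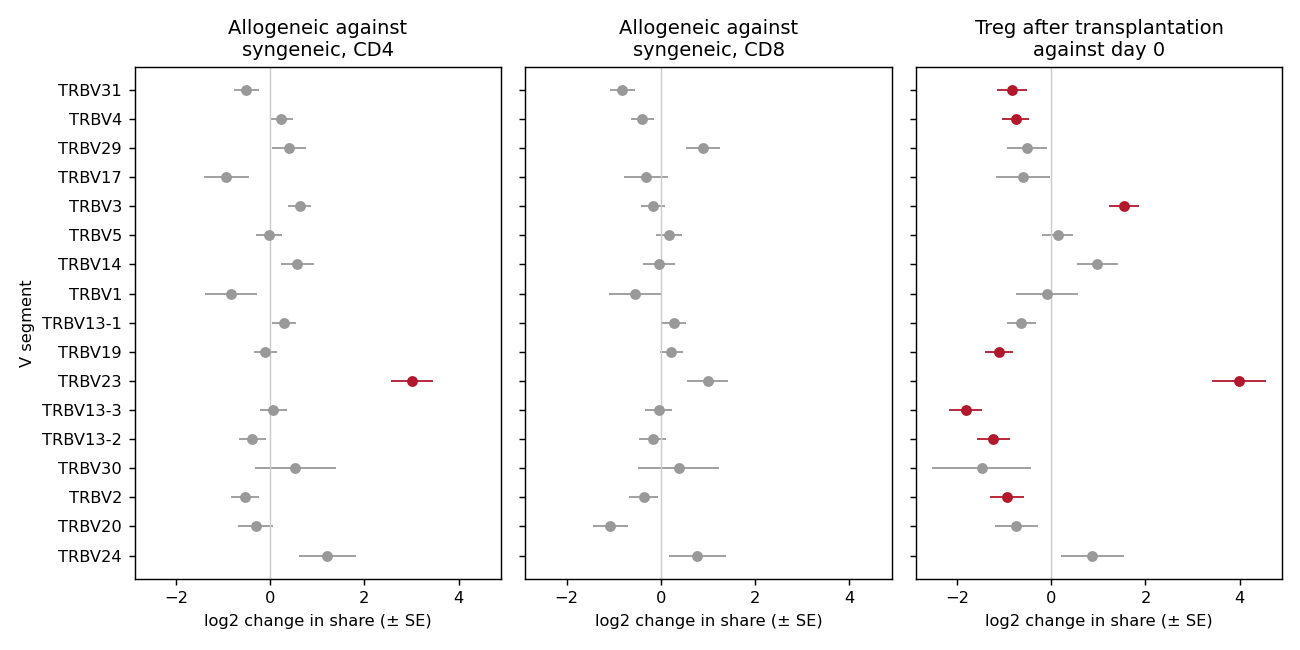
Log2 difference in share ± SE for each V segment, in allogeneic against syngeneic CD4 T cells, in allogeneic against syngeneic CD8 T cells and in Treg after transplantation against Treg at day 0; red points passed the test. TRBV23 is the red point of the CD4 panel at 3.01, no point of the CD8 panel is red, and 8 points of the Treg panel are red, TRBV23 at 3.99 and TRBV3 at 1.55 to the right of 0.

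Treg recovered from Treg-treated recipients differed from Treg at day 0 in 8 of 17 segments, with TRBV23 and TRBV3 the 2 that were higher. TRBV23 took 0.612% and 0.823% of reads in Treg at day 0. It took 10.4%, 14.2% and 9.64% in Treg after transplantation, 15.9-fold more (log2 difference 3.99 ± 0.57, adjusted p = 7.81e-07). TRBV3 went from 8.63% and 10.01% to 22.1%, 30.5% and 29.2% (1.55 ± 0.31, adjusted p = 8.94e-05). The groups did not overlap for either segment. TRBV3 and TRBV23 together held 38.7% ± 6.1 (SD, n = 3) after transplantation and 10.04% ± 1.1 (n = 2) at day 0.

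Another 6 segments were lower in Treg after transplantation. TRBV13-3 went from 3.09% and 2.79% to 0.770%, 1.15% and 0.615% (log2 difference -1.81 ± 0.35, adjusted p = 5.20e-05), again with no overlap. TRBV13-2 was lower by -1.23, TRBV19 by -1.11, TRBV2 by -0.94, TRBV31 by -0.83 and TRBV4 by -0.76. The 3 TRBV13 segments together held 8.14% ± 0.40 (SD, n = 2) at day 0 and 3.74% ± 1.0 (n = 3) later, a sum that was not tested, and TRBV13-1 did not pass (-0.63 ± 0.31, adjusted p = 0.0724). The 8 of 17 segments called compare with 50% of all V segments. Over the 17 the median was -0.63, against -0.30 over the 22. TRBV23 and TRBV3 were called in all 20 alternative settings. TRBV13-3 was called in 19, TRBV19 in 17, TRBV13-2 and TRBV31 in 15 each, TRBV4 in 11 and TRBV2 in 9, and TRBV2 was at 0.0052 with each clonotype counted once. The count rests on few libraries: it was 5 and 4 without the day 0 libraries JL019 and JL027, and 13 and 5 without the later libraries JL019-1 and JL027. Counting each clonotype once, 10 of 17 were called (63.6% of all V segments), with 5 called both ways. TRBV23 was higher by 3.78, TRBV24 by 1.89 and TRBV3 by 1.69. Lower that way were TRBV30 at -1.61, TRBV31 at -1.28, TRBV17 at -1.12, TRBV1 at -1.07, TRBV4 at -1.06, TRBV13-3 at -0.82 and TRBV29 at -0.79. TRBV13-2 (-0.24, adjusted p = 0.439) and TRBV19 (-0.31, adjusted p = 0.221) were not called by clonotypes.

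As shares of the summed Trbv rows, Trbv23 and Trbv3 were higher as well. Trbv3 made up 17.8% and 19.0% of the summed rows in Treg at day 0 and 36.5%, 48.9% and 47.4% afterwards. Trbv23 was higher by 3.06 ± 0.38, Trbv3 by 1.25 ± 0.21 and Trbv24 by 1.19 ± 0.34, and 8 rows were lower, 11 of 17 in all against 60.9% of the Trbv rows tested. On the level scale the rows mostly fell, with 12 lower, 1 higher and a median of -2.15, against -0.07 over all genes (13.3% of all genes called). The row that rose was Trbv23 (1.88 ± 0.58, adjusted p = 0.0292), and Trbv3 was at -0.07 ± 0.36. The summed rows were at 17060 and 18557 normalised counts at day 0 and 6459 to 7654 afterwards. Most marker lists moved between the same libraries without overlap, and their part in these results was not tested. Summed levels went from 77.71 and 233.4 to between 767.1 and 22836 for the 3 erythroid markers, from 1113 and 1226 to between 2468 and 2730 for the 3 CD8 markers, and from 38975 and 42103 to between 61496 and 104036 for the 4 Treg markers. The 4 measured B cell markers went from 833.7 and 908.3 to between 476.5 and 720.4. The CD4 T cell list went from 9157 and 10881 to between 15884 and 17869, and the gamma-delta T cell list from 408.9 and 419.7 to between 162.2 and 256.9. The myeloid list overlapped, at 1934 and 3069 before and 1172 to 2260 afterwards.

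Treg also differed from CD4 T cells taken at the same time. Over day 0 and Treg-treated recipients weighted equally, TRBV3 was 2.32-fold higher in Treg (log2 difference 1.21 ± 0.21, adjusted p = 9.89e-06) and was called in all 26 alternative settings. TRBV23 was higher by 0.84 ± 0.34 (adjusted p = 0.0474), a call kept in 8 of the 26. TRBV13-2, TRBV13-3, TRBV13-1 and TRBV19 were lower, by -0.79, -0.70, -0.62 and -0.53. These 6 of 17 compare with 40.9% of all V segments. The 17 had a median of -0.33 and the 22 one of -0.15. With libraries of the same prefix, arm and number paired as a block, TRBV3 alone was called, at 1.17 (adjusted p = 0.000627), and TRBV23 was at 0.78 (adjusted p = 0.105). The later Treg library JL027 carries no number and had no CD4 partner, so it added nothing to this contrast in that block. The count with the block is therefore from fewer Treg libraries as well as from pairing. Without CD4 day 0 JL019 or JL027 the count was 2 or 3, without Treg day 0 JL019 or JL027 it was 1 or 2, and without the later Treg library JL027 it was 1.

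The comparison was also made at each time. At day 0 no segment of the 17 was called by edgeR (4.55% of all V segments), and 1 had an unadjusted p under 0.05. That was TRBV3, at 8.63% and 10.01% in Treg and 5.78% and 5.51% in CD4 T cells. In Treg-treated recipients 8 of 17 were called, against 54.5% of all V segments. TRBV3 was at 22.1% to 30.5% in Treg and 5.16% to 10.2% in CD4 T cells, and TRBV23 at 9.64% to 14.2% and 2.37% to 4.52%. Higher in Treg were TRBV3 at 1.70, TRBV23 at 1.68 and TRBV24 at 1.58, and lower were TRBV13-2 at -1.53, TRBV13-3 at -1.42, TRBV19 at -1.08, TRBV13-1 at -0.98 and TRBV4 at -0.68. The change in the gap itself passed the test for TRBV13-2 (-1.50 ± 0.48), TRBV13-3 (-1.43 ± 0.48) and TRBV19 (-1.12 ± 0.41), at adjusted p = 0.0229, 0.0242 and 0.0375, which is 3 of 17 against 27.3% of all V segments. It did not pass for the other 3 segments named above over both times, TRBV3, TRBV23 and TRBV13-1.

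On the level scale of the RNA-seq table, 10 of 17 rows were lower in Treg than in CD4 T cells and none was higher (14.2% of all genes), with a median of -1.19 against 0.11 over all genes. The B cell markers summed to 833.7 and 908.3 in Treg and 361.7 and 498.5 in CD4 T cells at day 0, and to 476.5 to 720.4 and 143 to 303.5 in Treg-treated recipients. The gamma-delta T cell markers were the lower ones in Treg, at 408.9 and 419.7 against 833.2 and 880 at day 0 and at 162.2 to 256.9 against 321.6 to 1080 in Treg-treated recipients. In Treg-treated recipients the myeloid markers summed to 1172 to 2260 in Treg and 2927 to 13701 in CD4 T cells. At day 0 they were the other way, at 1934 and 3069 against 644.3 and 1573. The CD8 markers were at 1113 and 1226 against 1894 and 2043 at day 0, and at 2468 to 2730 against 1702 to 2349 in Treg-treated recipients. The erythroid markers were at 77.71 and 233.4 against 252 and 528.2 at day 0 and overlapped in Treg-treated recipients. The part of these lists in the result was not tested. As shares, 9 of 17 passed (56.5% of the Trbv rows). Trbv3 was higher by 1.08 ± 0.14, Trbv23 by 0.61 ± 0.26 and Trbv24 by 0.59 ± 0.23, and Trbv13-2, Trbv13-3, Trbv13-1, Trbv19, Trbv31 and Trbv1 were lower.

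How evenly reads were spread over the 17 segments was measured as Shannon entropy divided by its largest possible value, so that 1 would mean equal use. Evenness sets segments against each other within a library, where the assays agreed less, and it was computed from the TRB data only. In CD4 T cells it was 0.846 ± 0.0055 (SD, n = 4) in allogeneic and 0.803 ± 0.016 (n = 3) in syngeneic recipients (two-sided exact permutation test p = 0.0571, adjusted over 4 tests 0.114). In CD8 T cells it was 0.817 ± 0.015 and 0.849 ± 0.0062 (exact p = 0.0571, adjusted 0.114), the opposite direction. With each clonotype counted once the CD8 difference was 0.0198, higher in allogeneic recipients. By reads the groups did not overlap in either cell type. For 4 against 3 libraries, 0.0571 is the smallest p that this form of two-sided test gives, and the smallest single-tail p is 0.0286. Treg-treated and allogeneic recipients differed by -0.0050 in CD4 and -0.018 in CD8 T cells (exact p = 0.686 and 0.657, adjusted 0.686 for both).

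**Figure D5:**
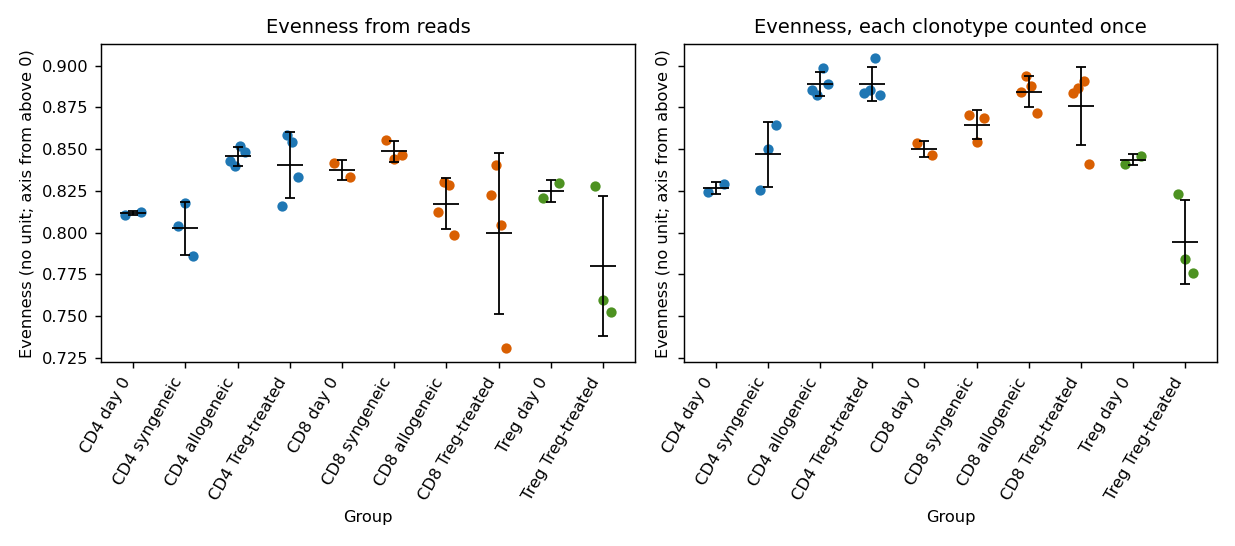
Evenness of V use in each library (points) by group with mean ± SD, computed from reads and with each clonotype counted once; the axis starts above 0. By reads, allogeneic CD4 libraries (mean 0.846) lie above syngeneic ones (0.803), and allogeneic CD8 libraries (0.817) below syngeneic ones (0.849).

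The libraries of a group differed among themselves in V use, by reads most in the groups from Treg-treated recipients. The distance between a pair of libraries, taken as the percentage of reads that would have to change segment, had a median of 2.05% between the 2 CD4 and 4.56% between the 2 CD8 day 0 libraries. It was 8.70% among allogeneic and 19.7% among Treg-treated CD4 libraries, and 12.97% and 17.6% in CD8 T cells. Among syngeneic libraries it was 9.56% in CD4 and 4.44% in CD8 T cells, and it was 23.0% among the 3 later Treg libraries. With each clonotype counted once that order did not hold. The CD4 medians were then 9.64% in syngeneic, 4.65% in allogeneic and 9.56% in Treg-treated recipients, the CD8 medians 5.01%, 8.33% and 8.78%, and that of the later Treg libraries 10.5%. These distances are a description and were not tested.

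Other genes of the receptor were taken from a list of 14, of which 13 were measured. Between CD8 and CD4 T cells 1 rose and 2 fell (18.3% of all genes called). In allogeneic against syngeneic recipients 1 rose and 2 fell in CD4 (14.6% of all genes), and 3 fell in CD8 T cells (21.1% of all genes). Dntt, which adds untemplated bases at the junctions during rearrangement, fell by 7.65 in CD4 and by 6.15 in CD8 T cells on the log2(value + 1) scale, and by 4.54 between Treg at day 0 and later, where it was the 1 gene of the list called (13.3% of all genes). The myeloid and Treg marker lists differed without overlap between allogeneic and syngeneic libraries in both cell types, and the erythroid list overlapped. Between Treg at day 0 and later, every list but the myeloid one differed without overlap. The part of the marker lists in the differences of these receptor genes was not tested. In Treg-treated against allogeneic CD4 T cells 4 rose, namely Cd3g at 1.001, Trbc2 at 0.95, Cd3d at 0.83 and Trbc1 at 0.76. That is 4 of 13 against 22.2% of all genes. Cd3e at -0.015, Cd247 at 0.21 and Trac at 0.35 did not pass. The median log2 difference of the list was 0.35 there. The 9 Trbv rows that rose did so in the same libraries. In the CD8 comparison of Treg-treated with allogeneic recipients 0 of 13 passed (0.0657% of all genes), and between Treg and CD4 T cells 3 fell (14.2%).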

How the data were processed

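Donor T cell populations in 31 libraries were profiled by TRB sequencing and RNA-seq. The authors' deposited TRB table gives a count per clonotype, taken to be reads. The deposited RNA table holds a gene-level signal, counts normalised with DESeq2 per the column description in the labels. The submitters' processing notes name kallisto, DESeq2, FastQC 0.11.7, GRCm38 and mm10 without roles. The aligner and caller of the TRB table are not given in the sources used here.

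Reads were summed per V segment and library after leaving out blank V names and the 5 excluded segments, and 2 repeated entries were merged. The sum over members was the library size. Segments with a mean share of at least 0.1% (22, of which 17 are members) were tested with edgeR 4.0.16 (quasi-likelihood, robust, no TMM, all 31 libraries in 1 group-means model, SE from log2 difference and F) in R 4.3.3, with Benjamini-Hochberg adjustment over the 22 at 0.05. Fold changes are ratios of fitted shares. RNA values were tested as log2(value + 1) with limma 3.58.1 (trend, robust) over 16741 genes, and as log2 of the percentage of the summed member Trbv rows plus 0.1. DESeq2 1.42.0 served as an alternative. Evenness used exact permutation tests in scipy 1.17.1, and figures matplotlib 3.10.9. Scripts were tested on simulated data. The 7 comparisons of cell types and arms are the main ones, and 15 further contrasts of the same fit were added after the data were seen.

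Every member is named with its range. In each comparison called members are named, at most 8 by adjusted p, with every library's share for at most 3, and where none was called the 2 with the lowest unadjusted p. Past this rule, and after their values were seen, all 11 called segments are named for CD8 against CD4 T cells, 4 segments for allogeneic against syngeneic CD8 T cells, and segments called with each clonotype counted once. The members, lists and comparisons were chosen with earlier results of these data known. Libraries of CD4, CD8 and Treg cells with the same prefix, arm and number were taken as 1 recipient, from the titles, and correlations of their deviations ran from -0.245 to 0.572. Alternatives were TMM, DESeq2, limma, filters, pseudocounts, clonotypes counted once, other library sizes, blocks and leaving out each library.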

Additional observations from a re-analysis of the deposited data

Results flagged for a closer look

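A library lay apart from the other 3 of its group in 6 of the 68 segment-by-group sets of 4 libraries tested, by Dixon's criterion at 95%. Chance flags about 1 in 20 such sets. None of the 4 evenness groups was flagged. In CD4 T cells of Treg-treated recipients, TRBV29 held 8.03% in JL019-1 (next 3.56%), with 28.3% of it in a single clonotype, TRBV2 held 2.07% in JL019-2 (next 1.15%), with 17.9%, and TRBV24 held 0.361% in JL019-2 (next 0.128%), with 39.5% of it in a single clonotype. In CD8 T cells of Treg-treated recipients, TRBV30 held 3.64% in JL019-2 (next 0.743%), with 78.6% of it in a single clonotype, and TRBV19 held 4.93% in JL027-2 (next 3.40%), with 14.1%. In CD8 T cells of allogeneic recipients, TRBV13-1 held 7.17% in JL027-2 (next 4.95%), with 7.76% of it in a single clonotype.

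Differences between cell types or times, tested as interaction terms by edgeR, were seen for 4 segments. The log2 difference of TRBV23 between allogeneic and syngeneic recipients was -2.02 ± 0.60 in CD8 minus CD4 T cells (adjusted p = 0.0132). The gap between Treg and CD4 T cells moved from day 0 to Treg-treated recipients by -1.50 for TRBV13-2, -1.43 for TRBV13-3 and -1.12 for TRBV19 on the log2 scale (adjusted p = 0.0229, 0.0242 and 0.0375).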

How the results depend on the processing

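Over the alternatives, segment calls by reads stayed on their side of the threshold in 671 cases, were lost in 117 and changed sign in 1, TRBV2 in Treg after transplantation with each clonotype counted once (0.0052). Trbv calls stayed in 525 cases, were lost in 65 and changed sign in 2, Trbv1 (-0.0606) and Trbv3 (-0.112) as shares in Treg-treated against allogeneic CD4 T cells. The causes were not tested. Counts of the 17 segments called moved as follows. In Treg against CD4 T cells (6), no filter on low shares gave 3 and a fit of the compared groups alone 2. The recipient block, in which the later Treg library JL027 had no partner, gave 1, and JL019 libraries alone 1. In allogeneic against syngeneic CD4 T cells (1), TMM gave 3, DESeq2 5, clonotypes once 7, removal of each segment's largest clonotype 2, all named V reads as library size 12, thinned clonotypes 10 and the compared groups alone 7. In CD8 T cells (0) the same settings gave 11 for clonotypes once, 3 without largest clonotypes, 1 with all named V reads, 11 for thinned clonotypes and 3 for the compared groups alone, adjustment over the 7 comparisons together gave 2 and the block on replicate label 1. In Treg-treated against allogeneic CD4 T cells (0), DESeq2 gave 2, clonotypes once 1, limma 1, thinned clonotypes 2, adjustment over 7 comparisons 1 and the prefix as covariate 1, which also gave 1 in CD8 T cells (0). In Treg after transplantation against day 0 (8), the compared groups alone gave 5 and JL019 libraries alone 4. For Trbv levels, shares gave 14 in CD8 against CD4 T cells (9), 2 in allogeneic against syngeneic CD4 (1), 0 in CD8 (2) and 2 in Treg-treated against allogeneic CD4 T cells (9), and the replicate label block gave 0 in the CD8 comparison of allogeneic and syngeneic recipients. Evenness reversed in CD8 allogeneic against syngeneic with clonotypes once (0.0198).

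Leaving out each library in turn gave 10 to 12 calls in CD8 against CD4, 1 to 7 in Treg against CD4, 1 to 2 and 0 to 0 in allogeneic against syngeneic CD4 and CD8, 0 to 2 and 0 to 0 in Treg-treated against allogeneic CD4 and CD8, and 4 to 13 in Treg after transplantation. For Trbv levels the ranges were 8 to 10, 8 to 11, 1 to 6, 0 to 2, 3 to 11 and 0 to 0 in the same order without the last. Evenness differences ran from 0.0348 to 0.0505 and -0.0355 to -0.0249 for allogeneic against syngeneic CD4 and CD8, and from -0.0111 to 0.0031 and -0.0315 to 0.0050 for Treg-treated against allogeneic, reversing without JL019-1 in CD4 and without JL027-2 in CD8. The Treg against CD4 count was 2 without CD4 day 0 JL019, 3 without JL027, 1 and 2 without Treg day 0 JL019 and JL027, and 1 without the later Treg JL027. Recipient pairing as a block gave 12 in CD8 against CD4. The replicate labels of different arms share only a number, and that block gave 1 in CD4 allogeneic against syngeneic, 0 in both Treg-treated comparisons and 6 in Treg after transplantation. Depth limits segments such as TRBV24, with 537 reads in all. Groups of 2 libraries borrow their spread from the others.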

Other observations

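The mean CDR3 length of TRBV3 clonotypes, each counted once, was 14.02 to 14.26 residues over the 4 CD8 group means, 13.68 to 13.89 over the 4 CD4 group means and 13.51 and 13.52 in the 2 Treg groups. For TRBV29 in CD8 T cells it was 13.6 ± 0.016 (SD, n = 2) at day 0, 13.6 ± 0.015 (n = 3) in syngeneic, 13.3 ± 0.093 (n = 4) in allogeneic and 13.3 ± 0.10 (n = 4) in Treg-treated recipients. The highest allogeneic library, at 13.42, lay below the lowest syngeneic one, at 13.61. Over all member segments together the CD8 libraries were ordered the same way, at 13.65 to 13.75 in allogeneic and 13.83 to 13.86 in syngeneic recipients, and these means include TRBV29. TRBV3 clonotypes in the same CD8 libraries were ordered the other way without overlap, at 13.97 to 14.04 in syngeneic and 14.11 to 14.35 in allogeneic recipients. These lengths were looked at after the other results and were not tested.

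Clonotypes joined to the second cluster of joining segments made up 62.7% ± 4.7 (SD, n = 4) of TRBV23 clonotypes in allogeneic CD4 T cells and 68.7% ± 5.4 (n = 3) in syngeneic ones. The libraries overlapped, at 56.5% to 66.8% and 62.5% to 71.8%, and the day 0 mean was 59.8% ± 8.6 (n = 2). For TRBV3 they made up 64.0% ± 0.66 (n = 3) in Treg after transplantation and 66.5% ± 1.8 (n = 2) at day 0. These percentages were not tested.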
